A study of Homo sapiens with 18 samples.

Results

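The 51 genes of the DNA replication machinery were examined after depletion of the transcription factor NRF1 in HEK293 Flp-In cells, a kidney-derived line of human embryonic origin that carries a landing site for transgenes. The members were taken by gene symbol from a deposited table of 58870 genes, and each listed symbol matched 1 row. All 51 passed the filter on low counts, among 17962 genes tested. The members comprise 12 subunits of DNA polymerases alpha, delta and epsilon and 39 genes that license, start, extend and protect replication forks.

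The data were 18 bulk libraries of polyadenylated RNA, 3 for each of 6 conditions. Cells without an NRF1 transgene were given either a control siRNA with no target (siNT) or one that targets NRF1 (siNRF1). A line carrying a doxycycline-inducible full-length NRF1 (NRF1-FL) and a line carrying the isoform without exon-7 (NRF1-ΔE7) each received the same siRNAs. Both transgenes are siRNA-resistant, are integrated in Flp-In cells and are switched on by doxycycline added after transfection, and the labels give the siRNA and doxycycline treatment to every sample, siNT cells without a transgene included. The labels put doxycycline at 24 h after transfection, while the study's methods give 6 h. The NRF1 row sums endogenous and transgene reads. The replicates carry numbers only, and the labels name no separate cultures. The p-values therefore reflect only how far these samples spread, possibly for technical reasons.

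NRF1 is a factor that binds GC-rich palindromes at promoters, many of them of nuclear genes for mitochondrial function. At each origin of replication, the origin recognition complex with CDC6 and CDT1 loads the MCM2-7 helicase, and CDC7-DBF4 kinase with CDC45, the GINS complex and MCM10 turns it on. Polymerase alpha-primase then lays down RNA-DNA primers, which the clamp loader RFC and the clamp PCNA hand over to polymerase delta on the lagging strand and polymerase epsilon on the leading strand. Most of these genes are transcribed in a wave before and during S phase under E2F factors. In bulk RNA, fewer cells in S phase and less RNA per cell cannot be told apart.

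NRF1 RNA, the siRNA target, stood at 31.1, 29.9 and 29.3 CPM (counts scaled to library size with TMM) in the siNT libraries and 7.19, 9.25 and 7.70 CPM in the siNRF1 libraries, a log2 fold-change of -1.92 ± 0.0605 (SE, adjusted p = 5.85e-18). It averaged 54.4 and 49.6 CPM with NRF1-FL under siNT and siNRF1, and 58.5 and 38.3 CPM with NRF1-ΔE7. The 2 transgene groups under siNRF1 thus differed in NRF1 RNA, and the part of this difference in the comparisons of isoforms was not tested. Library totals ran from 31.2 to 44.8 M. TMM scaling factors separated by siRNA in the 3 cell backgrounds, from 0.944 to 0.957 in siNT libraries and from 1.04 to 1.07 in siNRF1 libraries. Of 7 HEK293 markers 6 were at or above 1 CPM in every library, and NEFM was not. Of 10 markers of other cell types 7 stayed below 1 CPM in every library, and the summed level was 17.9 to 24.3 CPM in siNT libraries and 26.6 to 39.1 CPM in siNRF1 libraries, mostly COL1A1 and HBA1. KRT5, a keratin of that list, was at 2.02, 0 and 12.6 CPM in the siNRF1 libraries and at most 1.41 CPM in each other library. The part of these markers in the results below was not tested.

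Without a transgene, members changed in both directions with siNRF1. The polymerase alpha subunit gene POLA2, the helicase activators MCM10 and CDC7, the catalytic subunit gene of polymerase delta POLD1, and DNA2, RFC5 and GINS1 fell. RPA1, CLSPN, PCNA and ORC6 rose by less. In all, 20 of 51 members were lower with siNRF1 (background 32.4% of tested genes) and 24 were higher (background 32.1%), at an adjusted p under 0.05 in edgeR's quasi-likelihood test. With an absolute log2 fold-change above 0.5 as a further condition, 7 were lower (background 15.2%) and 2 higher (background 13.7%). The median log2 fold-change of members was 0.04, against 0.01 over all genes tested. Their median absolute value was 0.24, against 0.33 over all genes tested.

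POLA2 encodes the regulatory B subunit of polymerase alpha, which tethers the catalytic subunit to primase. The gene lies at chr11:65261962-65298685 on the plus strand (hg38). Its RNA stood at 73.0, 69.0 and 69.8 CPM in siNT and at 21.6, 25.1 and 23.4 CPM in siNRF1 libraries without a transgene. With NRF1-FL it was at 67.9, 76.2 and 76.4 CPM with siNT and 53.1, 49.7 and 49.4 CPM with siNRF1. With NRF1-ΔE7 the siNT libraries were at 68.3, 67.8 and 67.2 CPM and the siNRF1 libraries at 23.0, 25.0 and 26.0 CPM. The siNRF1 libraries lay below the siNT libraries in each background, with no overlap, and those with NRF1-FL lay between the siNT libraries and the other siNRF1 libraries. The log2 fold-change with siNRF1 was -1.60 ± 0.0544 without a transgene (adjusted p = 2.23e-17), -0.54 ± 0.0494 with NRF1-FL (adjusted p = 1.76e-09) and -1.46 ± 0.0531 with NRF1-ΔE7 (adjusted p = 6.16e-17). The response was 1.07 weaker with NRF1-FL than without a transgene (95% interval 0.91 to 1.22, adjusted p = 4.96e-10). With NRF1-ΔE7 it differed from that without a transgene by 0.15 (95% interval -0.01 to 0.30, adjusted p = 0.368).

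The 250 bases before the annotated start of POLA2 are shown because they hold 3 matches to the NRF1 pattern. This promoter sequence is from RefSeq (GRCh38.p14, plus strand, chr11:65261712-65261961), and the capitals mark matches to GCGCANGCG on either strand, of which the match 49 bases before the start also fits the stricter core GCGCATGCG.
POLA2 promoter: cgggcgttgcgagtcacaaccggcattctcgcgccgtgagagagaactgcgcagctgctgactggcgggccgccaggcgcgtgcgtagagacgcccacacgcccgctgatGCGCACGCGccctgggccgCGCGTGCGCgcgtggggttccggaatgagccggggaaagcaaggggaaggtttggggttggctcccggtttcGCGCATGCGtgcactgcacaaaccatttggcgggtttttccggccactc
For contrast, the same stretch of MCM10 (plus strand, chr10:13161308-13161557), whose RNA fell in all 3 backgrounds, holds no such match.
MCM10 promoter: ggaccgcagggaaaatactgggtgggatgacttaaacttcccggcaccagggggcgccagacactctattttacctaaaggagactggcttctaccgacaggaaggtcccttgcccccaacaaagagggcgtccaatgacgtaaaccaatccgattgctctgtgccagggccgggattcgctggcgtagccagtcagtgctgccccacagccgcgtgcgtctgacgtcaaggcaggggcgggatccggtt
Of 44 members with a promoter in the RefSeq table (250 bases before to 50 after the start), 4 hold the core on either strand, which is 9.09%, against 3.58% of 11719 tested genes with a promoter and 2.10% of all 27305 promoters. Besides POLA2 they are POLE4, ORC6 and CDT1, shown with the core in capitals (plus strand, chr2:74958620-74958648, chr16:46689520-46689548 and chr16:88803621-88803649). CDT1 holds a further copy.
POLE4 promoter window: gggcctgcgcCGCATGCGCgcgcacagtc
ORC6 promoter window: cgctattgatGCGCATGCGcaaaaggaag
CDT1 promoter window: ccgcacgtcgGCGCATGCGcgcggccaag
With siNRF1 alone, RNA of POLE4 fell by 0.25 on the log2 scale and that of ORC6 and CDT1 rose, with log2 fold-changes of 0.48 and 0.13. The looser GCGCANGCG was found in 13 of 44 members (29.5%) and in 14.0% of tested genes' promoters. In CDC7 its match begins 3 bases after the start site, with none in the bases before. E2F patterns (TTTCCCGC, TTTGGCGC, TTTCGCGC or TTTGCCGC, either strand) were found in 19 of 44 members (43.2%) and in 5.26% of tested genes' promoters. In POLA2 the E2F match begins 53 bases before the start and overlaps the NRF1 core. Members with an E2F pattern had a median log2 fold-change of 0.08 with siNRF1 alone and those without 0.01. For the looser NRF1 pattern the medians were 0.05 with it and 0.04 without it. Between isoforms under siNRF1, members with the looser NRF1 pattern had a median of -0.07 and those without it -0.01. A match is a description of letters and not a bound site.

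The other subunits of polymerase alpha-primase had log2 fold-changes between -0.19 and 0.27 without a transgene. POLA1, the catalytic subunit, stood at 190.0, 192 and 191 CPM in siNT and at 205, 193 and 194 CPM in siNRF1 libraries, with a log2 fold-change of 0.05 (95% interval -0.01 to 0.10, adjusted p = 0.118). PRIM1, the catalytic primase subunit, fell by 0.19 ± 0.0381 on the log2 scale without a transgene. PRIM2, the large primase subunit, rose by 0.27 ± 0.0387. Per kilobase of canonical transcript, mean levels in siNT cells were 44.1 CPM for PRIM1, 34.9 for POLA1, 21.1 for PRIM2 and 19.9 for POLA2. With siNRF1 alone POLA2 was at 6.59 CPM per kilobase, the lowest of the 4.

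Of the 4 subunits of polymerase delta, POLD1 and the accessory subunit POLD2 fell in all 3 backgrounds. POLD1 RNA was 95.7, 89.7 and 93.2 CPM in siNT and 41.8, 42.4 and 44.6 CPM in siNRF1 libraries without a transgene. It was 46.9, 47.5 and 49.0 CPM in siNRF1 libraries with NRF1-FL and 40.2, 36.6 and 39.5 CPM in those with NRF1-ΔE7. Each of these siNRF1 libraries lay below every siNT library, of which the lowest, in the NRF1-ΔE7 line, was at 82.0 CPM. The log2 fold-changes were -1.11 ± 0.0381, -1.02 ± 0.0375 and -1.10 ± 0.0382 (highest adjusted p = 1.18e-16). The response with NRF1-FL differed from that without a transgene by 0.10 (95% interval -0.01 to 0.21, adjusted p = 0.392). POLD2 fell by 0.32, 0.32 and 0.28 on the log2 scale. POLD3, which joins the enzyme to the clamp, was at a log2 fold-change of -0.01 without a transgene and rose by 0.12 with NRF1-FL and 0.24 with NRF1-ΔE7. POLD4, the smallest subunit, was counted at 2.06 to 6.56 CPM across libraries. It rose with siNRF1 by 0.79 ± 0.178 with NRF1-FL and by 0.69 ± 0.164 with NRF1-ΔE7. Without a transgene its log2 fold-change was 0.03 ± 0.171. The differences from that response, 0.76 with NRF1-FL (adjusted p = 0.0814) and 0.67 with NRF1-ΔE7 (adjusted p = 0.157), did not pass. Mean siNT levels of POLD4 were 2.36 CPM with NRF1-FL, 3.41 CPM with NRF1-ΔE7 and 3.71 CPM without a transgene.

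Of polymerase epsilon RNAs, POLE and POLE3 rose and POLE4 fell in all 3 backgrounds. POLE, the catalytic subunit, rose from 236 ± 2.92 to 301 ± 4.75 CPM (SD, n = 3) without a transgene, and by 0.35, 0.36 and 0.43 on the log2 scale in the 3 backgrounds. POLE3, a histone-fold subunit, rose by 0.39, 0.41 and 0.47. Its histone-fold partner POLE4 fell by 0.25, 0.19 and 0.19. POLE2, the B subunit of this polymerase, was at a log2 fold-change of 0.03 (95% interval -0.07 to 0.12) without a transgene. It rose by 0.15 with NRF1-FL (adjusted p = 0.00573) and by 0.10 with NRF1-ΔE7 (adjusted p = 0.0478). The call with NRF1-ΔE7 was lost under many alternatives (highest adjusted p = 0.190, with no filter). That with NRF1-FL was lost with no filter (adjusted p = 0.0618). Neither response differed from that without a transgene at the threshold (adjusted p = 0.354 and 0.615).

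**Figure D1:**
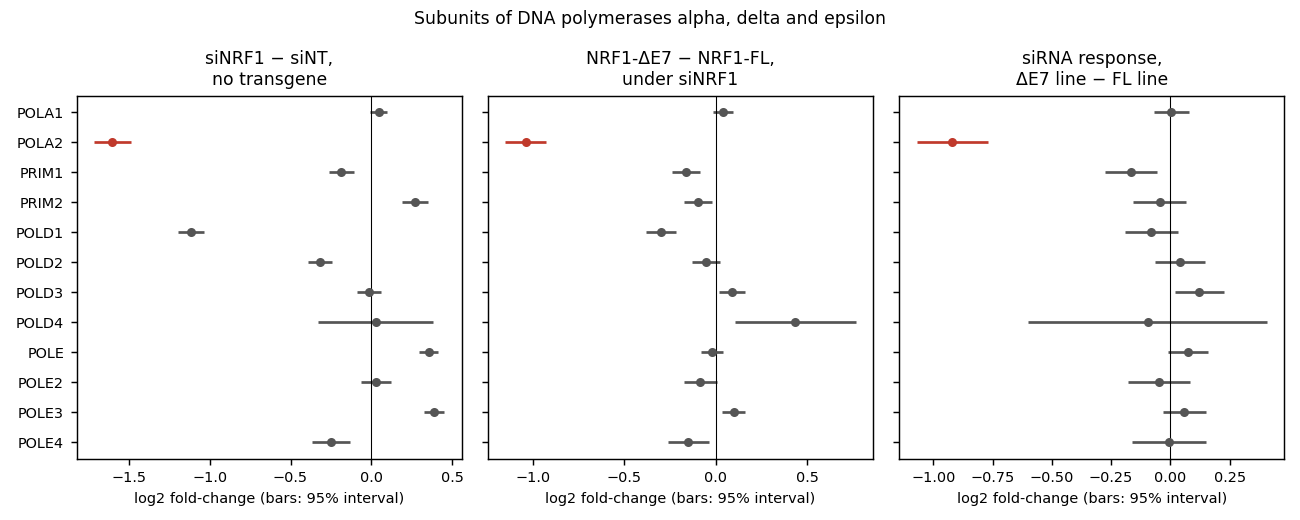
Log2 fold-change of the 12 polymerase subunit RNAs with siNRF1 against siNT (left), with NRF1-ΔE7 against NRF1-FL under siNRF1 (middle), and the difference of siRNA responses between the 2 lines (right). Points are edgeR estimates over 3 libraries a group, bars are 95% intervals, and POLA2 (red) is at -1.60, -1.04 and -0.92.

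To set POLA2 against the other subunits apart from library scaling, the log2 ratio of each subunit to POLA2 was taken within each library. POLA2 was named for this comparison with its fall already known, so its place among the 12 is a description. The POLE3 to POLA2 ratio was 0.70, 0.81 and 0.83 on the log2 scale in siNT libraries and 2.86, 2.62 and 2.75 in siNRF1 libraries without a transgene. In siNRF1 libraries with NRF1-FL it was 1.71, 1.71 and 1.73, and with NRF1-ΔE7 it was 2.89, 2.81 and 2.80. The NRF1-FL values lay between the others with no overlap. Without a transgene all 11 subunits rose relative to POLA2, by 0.47 for POLD1 to 1.96 for POLE3 (limma, adjusted p under 0.05 for each). Of all 17961 other genes tested, 98.2% rose and 0.59% fell relative to POLA2, so that a count of 11 of 11 is near the background. In the NRF1-ΔE7 line all 11 rose (96.9% of tested genes). In the NRF1-FL line 10 rose (77.1% of tested genes) and POLD1 fell relative to POLA2 by 0.48.

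The other large falls were of replication start and elongation factors. Counting across backgrounds, which share no libraries, 19 of 51 members were called lower in all 3 (background 26.6% of tested genes) and 23 higher in all 3 (background 25.8%). POLA1, MCM5 and ORC2 passed the test in none, and 6 members passed in some.

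**Figure D2:**
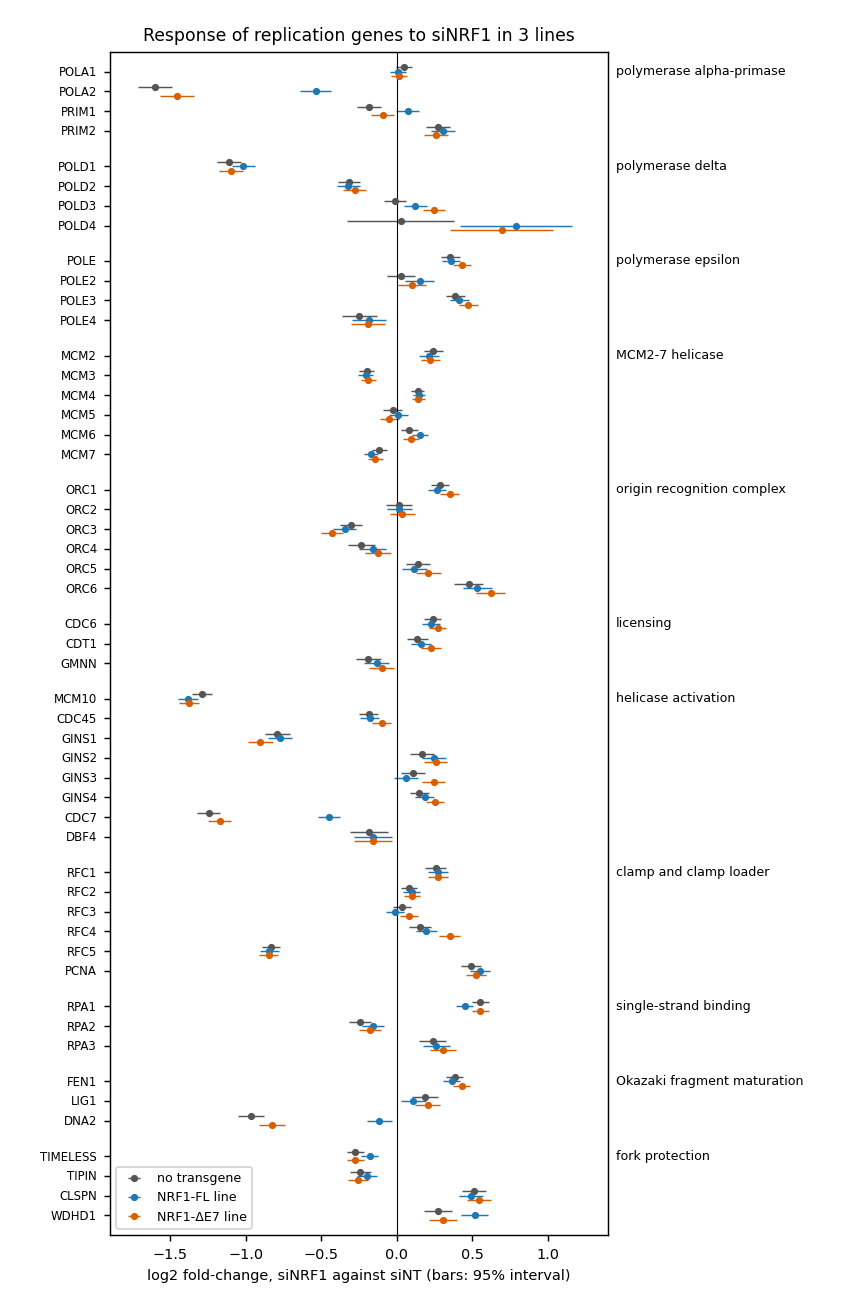
Log2 fold-change of the 51 members with siNRF1 against siNT, without a transgene (grey), with NRF1-FL (blue) and with NRF1-ΔE7 (orange), grouped by complex, with 95% intervals. For most genes the 3 points lie close together, and POLA2, CDC7 and DNA2 stand out with blue points at -0.54, -0.45 and -0.12 and orange points at -1.46, -1.17 and -0.83. The points of POLD4 also lie apart, at 0.03 (grey), 0.79 (blue) and 0.69 (orange), with wide intervals.

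CDC7, the catalytic subunit of the kinase that phosphorylates MCM proteins, gave a pattern like that of POLA2. Its RNA stood at 133, 138 and 135 CPM with siNT and at 59.8, 55.6 and 55.7 CPM with siNRF1 without a transgene. With NRF1-FL it went from 125, 121 and 117 CPM to 88.3, 86.3 and 91.9 CPM, and with NRF1-ΔE7 from 109, 104 and 108 CPM to 45.8, 48.2 and 48.2 CPM. The siNT and siNRF1 libraries did not overlap in any background. Log2 fold-changes were -1.25 ± 0.0361, -0.45 ± 0.0349 and -1.17 ± 0.0367. The response with NRF1-FL was 0.80 weaker than without a transgene (95% interval 0.69 to 0.90, adjusted p = 1.09e-10). DBF4, the regulatory subunit of the same kinase, fell by 0.18, 0.16 and 0.16.

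DNA2, a nuclease-helicase that trims long flaps of Okazaki fragments, was the member whose fall was smallest with NRF1-FL among the 7 that fell by more than 0.5 without a transgene. It stood at 64.1, 66.1 and 64.3 CPM with siNT and 34.6, 31.4 and 33.4 CPM with siNRF1 without a transgene. With NRF1-FL the libraries were at 69.5, 69.2 and 69.4 CPM with siNT and 64.4, 63.6 and 63.9 CPM with siNRF1. With NRF1-ΔE7 they were at 57.4, 63.5 and 60.6 CPM and at 32.4, 36.2 and 33.8 CPM. The log2 fold-change was -0.97 ± 0.0425 without a transgene, -0.12 ± 0.0394 with NRF1-FL (adjusted p = 0.0131) and -0.83 ± 0.0419 with NRF1-ΔE7. Its partners on flaps moved otherwise, with FEN1, the main flap nuclease, up by 0.38, 0.36 and 0.43 and LIG1, the ligase that seals fragments, up by 0.19, 0.11 and 0.20.

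MCM10, a scaffold needed to activate the helicase, fell in all 3 backgrounds. It stood at 149, 153 and 153 CPM with siNT and 64.7, 60.3 and 61.2 CPM with siNRF1 without a transgene. With siNRF1 it was at 60.2, 55.8 and 57.9 CPM with NRF1-FL and at 55.2, 57.4 and 57.1 CPM with NRF1-ΔE7. No siNRF1 library with either transgene came near the lowest siNT library, at 146 CPM. The log2 fold-changes were -1.29 ± 0.0320, -1.38 ± 0.0322 and -1.38 ± 0.0319. The response with NRF1-FL differed from that without a transgene by -0.10 (95% interval -0.19 to -0.00, adjusted p = 0.3).

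GINS1, a subunit of the 4-part GINS complex of the helicase, stood at 140.2, 148 and 139 CPM with siNT and 82.8, 78.0 and 85.7 CPM with siNRF1 without a transgene. Its log2 fold-changes were -0.79 ± 0.0393, -0.78 ± 0.0391 and -0.90 ± 0.0389. The other GINS subunits rose without a transgene, with log2 fold-changes of 0.17 for GINS2, 0.11 for GINS3 and 0.15 for GINS4. RFC5, a small subunit of the clamp loader, stood at 117, 119.6 and 120.0 CPM with siNT and 66.6, 65.8 and 67.7 CPM with siNRF1 without a transgene. Its log2 fold-changes were -0.83 ± 0.0296, -0.84 ± 0.0295 and -0.85 ± 0.0291, and the response with NRF1-FL differed from that without a transgene by -0.01 (95% interval -0.10 to 0.08). RFC1, the large subunit, rose by 0.26, RFC4 by 0.15 and RFC2 by 0.08, and RFC3 was at a log2 fold-change of 0.04 (adjusted p = 0.295).

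**Figure D3:**
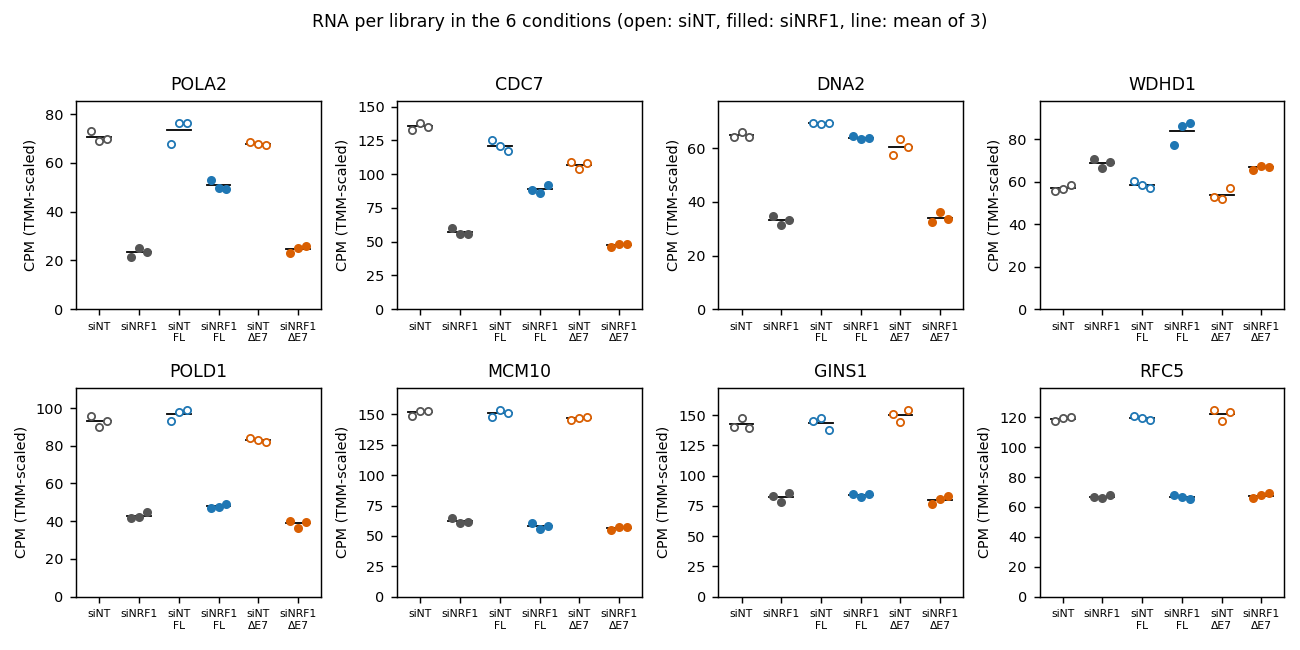
RNA of 8 members in each of the 18 libraries, in TMM-scaled CPM on a linear axis from 0, with open points for siNT, filled points for siNRF1 and a line at the mean of 3. In the upper row POLA2, CDC7 and DNA2 with siNRF1 are higher with NRF1-FL (means 50.7, 88.8 and 64.0) than with NRF1-ΔE7 (24.7, 47.4 and 34.1), while MCM10, GINS1 and RFC5 in the lower row are at like levels in all siNRF1 groups.

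The 3′ UTRs of the members were also read for CTGTATC, the match to bases 2 to 8 of the guide strand of the NRF1 siRNA given in the study's methods. Stretches of 30 bases around matches are shown for the members that fell by more than 0.5 and hold one, since MCM10 alone holds 3 of them. They come from the canonical transcripts of GENCODE v44 (hg38), read along the transcript, with the seed match in capitals.
MCM10 3′ UTR, match 1: gagctatgtttCTGTATCttttggttatag
MCM10 3′ UTR, match 2: ggtggaaggtgCTGTATCtaacttgtgttc
MCM10 3′ UTR, match 3: ctgagggtgagCTGTATCtggatgcctttt
GINS1 3′ UTR: tttctaataagCTGTATCtgtaatcacagc
RFC5 3′ UTR: tggcattgtgtCTGTATCtaatttaaacag
CDC7 3′ UTR: catccagatctCTGTATCctgttttgacta
In all, 7 of 51 members hold a match (13.7%, against 11.01% of 14245 tested genes with a 3′ UTR), and the other 3 are ORC4, CDC6 and POLD3. POLA2, POLD1 and DNA2 hold none. The 7 members had a median log2 fold-change of -0.79 without a transgene, -0.45 with NRF1-FL and -0.85 with NRF1-ΔE7, and the 44 others 0.08, 0.11 and 0.12. Over all tested genes with a 3′ UTR and no match the median was 0.03 without a transgene and 33.6% were called lower. With 1 match the median was -0.28 and 58.1% were called lower, and with 3 or more it was -0.57 and 72.2% were called lower (36 genes). The length of the 3′ UTR was not taken into account in these groups. Among members with a match, MCM10, GINS1, RFC5 and CDC7 fell in all 3 backgrounds, ORC4 fell by 0.23 without a transgene, CDC6 rose by 0.24 and POLD3 was at -0.01. The part of these matches in any member's fall was not tested.

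**Figure D4:**
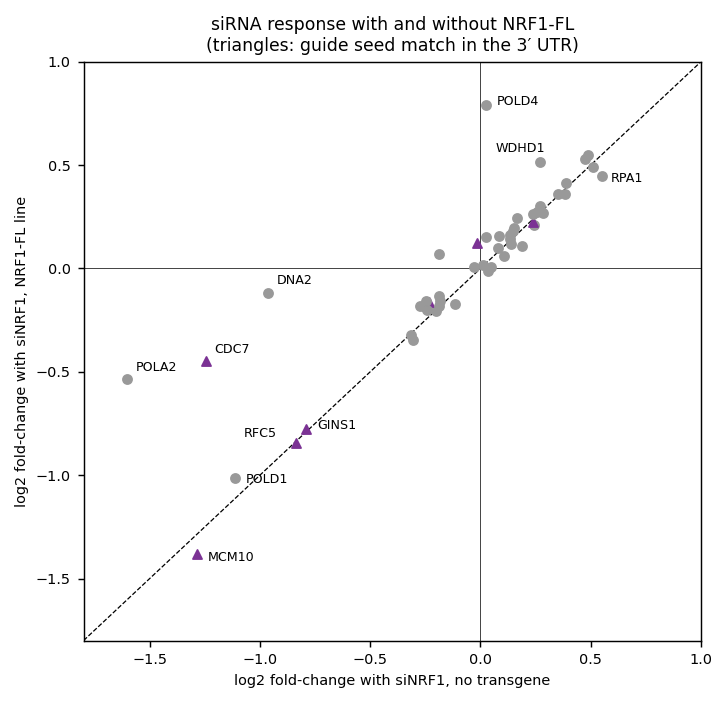
Log2 fold-change of each member under siNRF1 relative to siNT with NRF1-FL (vertical axis) and without a transgene (horizontal axis), on disjoint libraries, with a dashed line at equal values. Triangles mark 7 members with a guide seed match in the 3′ UTR, and POLA2, CDC7 and DNA2 lie above the line, at 1.07, 0.80 and 0.85 from it. POLD4 also lies above the line, at 0.76 from it, a difference that did not pass the test.

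Across all 51 members, few responses differed between backgrounds. With NRF1-FL the response was above that without a transgene for 5 members (background 4.18%), POLA2, DNA2, CDC7, PRIM1 and WDHD1, and below it for 0 by edgeR (background 1.15%), where 2 were below at an unadjusted p under 0.05 and 1 by DESeq2. With NRF1-ΔE7 it was above that without a transgene for 2 members (background 0.44%), POLD3 by 0.26 and RFC4 by 0.20, and below it for 0 by edgeR and by DESeq2 (background 1.59%), where 1 was below at an unadjusted p under 0.05. The 2 differences use the same siNT and siNRF1 libraries. PRIM1 stood at 62.7 ± 2.93 and 55.0 ± 1.07 CPM (SD, n = 3) with siNT and siNRF1 without a transgene and at 63.4 ± 0.313 and 66.6 ± 1.38 CPM in the NRF1-FL line. Its response was 0.26 higher with NRF1-FL (adjusted p = 0.00322).

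WDHD1, which couples polymerase alpha to the helicase, rose with siNRF1 and did so most with NRF1-FL. Without a transgene it stood at 55.6, 56.7 and 58.5 CPM with siNT and 70.5, 66.3 and 69.1 CPM with siNRF1. In the NRF1-FL line it went from 60.2, 58.4 and 57.0 CPM to 77.3, 85.9 and 87.6 CPM, and in the NRF1-ΔE7 line from 52.8, 51.8 and 57.0 CPM to 65.6, 67.3 and 67.0 CPM. No siNRF1 library overlapped the siNT libraries. The response was 0.24 higher with NRF1-FL than without a transgene (adjusted p = 0.0164).

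Within the NRF1-FL line, 19 members were lower with siNRF1 (background 31.3%) and 26 higher (background 32.2%). Within the NRF1-ΔE7 line, 20 were lower (background 33.6%) and 28 higher (background 34.5%). With upper-quartile scaling these splits became 13 lower and 32 higher, and 12 lower and 30 higher. The lower share of calls over all genes also went down, from 49.26% to 39.68% and from 49.36% to 39.95%. The median over members was 0.10 in both lines and 0.02 over all genes tested. PRIM1 fell by 0.09 in the NRF1-ΔE7 line (adjusted p = 0.0296), and its log2 fold-change was 0.00244 with upper-quartile scaling.

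Without a transgene, RPA1, CLSPN, PCNA and ORC6 had the largest log2 fold-changes among the members that rose. RPA1, the large subunit of the single-strand binding protein RPA, went from 215, 209 and 216 CPM to 317, 310.3 and 310.2 CPM without a transgene, and rose by 0.55 ± 0.0265, 0.45 ± 0.0264 and 0.55 ± 0.0265 on the log2 scale in the 3 backgrounds. RPA3 rose by 0.24 and RPA2 fell by 0.25, so that the 3 subunits of the same protein did not move together. PCNA went from 409 ± 11.9 to 574 ± 15.0 CPM (SD, n = 3) without a transgene and rose by 0.49, 0.55 and 0.52. CLSPN, which carries the checkpoint signal to CHK1, rose by 0.51, 0.49 and 0.54.

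The origin recognition and licensing genes moved within 0.62 on the log2 scale. ORC6 rose by 0.48, 0.53 and 0.62 and ORC1 by 0.29, 0.27 and 0.35, while ORC3 fell by 0.31, 0.35 and 0.43. ORC2 was at a log2 fold-change of 0.01 without a transgene (95% interval -0.07 to 0.10). CDC6 rose by 0.24 and CDT1 by 0.13, and GMNN, the inhibitor of CDT1, fell by 0.19 without a transgene. Of the MCM2-7 helicase, MCM2 rose by 0.24, MCM4 by 0.14 and MCM6 by 0.08, MCM3 fell by 0.20 and MCM7 by 0.12, and MCM5 was at -0.03 (95% interval -0.09 to 0.04). Of the fork protection pair, TIMELESS fell by 0.28 and TIPIN by 0.24. Per kilobase of transcript, MCM7 at 428 CPM and PCNA at 320.2 CPM had the highest mean levels among members in siNT cells, and POLD4 at 2.19 CPM the lowest.

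Comparing the isoforms directly, under siNRF1 14 members had less RNA with NRF1-ΔE7 (background 17.8%) and 8 had more (background 13.9%) relative to NRF1-FL. With upper-quartile scaling the split became 8 lower and 11 higher, where over all genes the lower share of calls went from 56.2% to 45.9%. This comparison uses the siNRF1 libraries of both lines, which also enter the responses above. The HEK293 markers differed between these lines too, with log2 fold-changes of -0.66 for LHX1, -0.63 for SIX2, -0.49 for INA, -0.30 for NEFL and 0.31 for VIM, and summed levels of 1628 to 1719 CPM with NRF1-FL and 1896 to 1966 CPM with NRF1-ΔE7. Their part in the members' differences was not tested. With an absolute log2 fold-change above 0.5, 3 were lower (background 4.1%), with log2 fold-changes of -1.04 ± 0.0541 for POLA2, -0.91 ± 0.0370 for CDC7 and -0.91 ± 0.0415 for DNA2, and 0 were higher by edgeR, by DESeq2 and at an unadjusted p under 0.05 (background 2.11%). The next were -0.33 for WDHD1, -0.30 for POLD1 and -0.20 for TIMELESS. GINS2 was higher by 0.20, ORC6 by 0.16 and CDT1 by 0.15. All 11 other polymerase subunits were higher relative to POLA2, by 0.72 to 1.41 (98.3% of tested genes).

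Under siNT, with endogenous NRF1 present, 10 members were lower with NRF1-ΔE7 (background 8.42%) and 1 was higher (background 7.13%) relative to NRF1-FL. Log2 fold-changes were -0.22 for POLD1, -0.20 for DNA2, -0.18 for each of RFC3, LIG1 and CDC7, and 0.19 for GINS2. POLA2 was at a log2 fold-change of -0.12 (95% interval -0.22 to -0.02, adjusted p = 0.107). Of the 7 HEK293 markers 4 were lower and 2 higher (same backgrounds), with SIX2 at -0.71, LHX1 at -0.41 and NEFM at 0.68. Their summed level was 1635 to 1709 CPM with NRF1-FL and 1891 to 1966 CPM with NRF1-ΔE7. Relative to POLA2, POLD4 was the subunit called higher (7.86% of tested genes).

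The siRNA response was lower in the NRF1-ΔE7 line than in the NRF1-FL line for 4 members (background 5.55%) and higher for 1 (background 1.64%). The differences were -0.92 ± 0.0726 for POLA2 (adjusted p = 4.03e-09), -0.73 ± 0.0506 for CDC7 (adjusted p = 5.57e-10), -0.71 ± 0.0575 for DNA2 (adjusted p = 5.79e-09) and -0.21 ± 0.0612 for WDHD1 (adjusted p = 0.0365). GINS3 was at 0.18 ± 0.0534 (adjusted p = 0.0400). The call of WDHD1 was lost under some alternatives (highest adjusted p = 0.130, without siNT with NRF1-ΔE7 replicate 3), as was that of GINS3 (highest adjusted p = 0.130, without siNRF1 with NRF1-FL replicate 2). Relative to POLA2, all 11 other subunits were higher, by 0.75 for PRIM1 to 1.03 for POLD3 (96.6% of tested genes). For POLD1 itself the difference between lines was -0.08 (95% interval -0.19 to 0.03), for MCM10 0.01 (95% interval -0.09 to 0.10) and for RFC5 -0.01 (95% interval -0.09 to 0.08).

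Some rows share sequence with neighbours. POLA2 shares 444 exonic bases with AP000944.2 on the same strand. AP000944.2 stood at means of 14.2 and 13.8 CPM with siNT and siNRF1 without a transgene. It was at 15.2 and 23.8 CPM in the NRF1-FL line and at 16.5 and 12.6 CPM in the NRF1-ΔE7 line. By edgeR its log2 fold-change between isoforms under siNRF1 was -0.92 (adjusted p = 2.47e-05). Its siRNA response differed between the NRF1-ΔE7 and NRF1-FL lines by -1.03 (adjusted p = 0.00172). Its log2 fold-change with siNRF1 without a transgene was -0.02. The part of this row in the POLA2 values was not tested. Same-strand pairs also include POLD4 with AP003419.1 (448 bases, means of 3.81 and 2.67 CPM over all libraries). PRIM1 shares 139 bases with NACA (61.8 and 699 CPM), also on the same strand. No source used here says how reads were divided within such pairs, so these rows are uncertain to that extent. RFC5 and WSB2 share 186 bases and GINS1 and NINL 259 bases on opposite strands, and WSB2 rose by 0.13 while NINL fell by 0.16 without a transgene. The listed pseudogenes of members reached at most 0.304 CPM.

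Other genes that serve replication were read from lists of known functions in cells without a transgene, where 32.4% of all tested genes were called lower and 32.1% higher. Of 20 nucleotide supply genes 10 fell and 8 rose, against those shares. SAMHD1, a hydrolase of dNTPs, fell from 129 ± 1.3 to 13.3 ± 0.57 CPM (SD, n = 3), and RRM2B, a ribonucleotide reductase subunit, fell by 0.88 on the log2 scale, while RRM2, the S phase subunit of the same enzyme, rose by 0.35. SAMHD1 was among the genes whose response was weaker with NRF1-FL, by 0.68. Of 32 other replication factors 17 fell and 8 rose, among them POLH, a translesion polymerase, which fell by 0.60, and DSCC1, a clamp-loading factor, which rose by 0.53. Of 12 genes of nucleosome assembly at forks 5 fell and 6 rose. RBBP7, a histone-binding protein, fell by 2.31 and the histone chaperone ASF1B rose by 0.75. Of 10 checkpoint genes 3 fell, which is near the background, and 6 rose. The phosphatase CDC25A fell by 1.34 and the kinase WEE1 rose by 0.69. Of 9 genes of mitochondrial DNA replication 6 fell and 1 rose. TFB2M, a mitochondrial transcription factor, fell by 1.09, and MGME1, a nuclease of mitochondrial DNA, rose by 0.53.

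In the cell cycle lists genes also moved in both directions, beside the same background of 32.4% lower and 32.1% higher. Of 18 G1/S regulators 8 fell and 9 rose. By more than 0.5, 5 fell (background 15.2%) and 7 rose (background 13.7%). The cyclin gene CCND1 fell by 1.74 and its partner kinase CDK4 fell by 1.34, while the factors E2F7 and E2F1 rose by 0.87 and 0.85. Of 20 G2/M markers 7 fell and 7 rose, both near the background. HMMR, a spindle protein, fell by 0.73 and AURKB, a mitotic kinase, fell by 0.58, while TTK, a spindle checkpoint kinase, rose by 0.29 and the proliferation marker MKI67 by 0.27. The part of cell cycle position in the members' changes was not tested.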

How the data were processed

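Polyadenylated RNA was sequenced in 6 groups of 3 libraries. Reads were trimmed (Cutadapt 1.18) and mapped (STAR 2.7.0f) by the authors to hg38 with GENCODE v30. The submitters' notes also name DESeq2 1.46.0. The authors deposited estimated counts per gene, not normalized (91.9% whole numbers), from a stranded kit. For the counting tool and strand, the setting was not given in the sources used. A further 18 columns of per-library values matched no sample and were not used.

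Counts were rounded and genes filtered by filterByExpr (minimum count 10). Library totals were 31.2 to 44.8 M. One edgeR 4.0.16 quasi-likelihood fit (R 4.3.3, TMM) had a mean per group. Tests are two-sided, with Benjamini-Hochberg adjustment over genes tested. Ratios to POLA2 were tested with limma 3.58.1 on log2(CPM + 0.5). Alternatives were RLE and upper-quartile scaling, other filters, a replicate block, DESeq2 1.42.0, fits of only the libraries compared, and leaving out each library. The steps were tested on simulated counts.

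Named genes were NRF1, the polymerase subunits, up to 6 other members a direction with the largest called change per comparison, the most changed member of each complex and up to 3 called genes of each other list. Other members and list genes named beside them were picked with their values in view, and the members and lists themselves with earlier results of these data known. Gene positions and 3′ UTRs come from GENCODE v44, later than the authors' v30, and promoters from RefSeq. The promoters of POLD3, MCM4, MCM5, GINS4, RPA2, RPA3 and DNA2 were not analysed here.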

Additional observations from a re-analysis of the deposited data

Results flagged for a closer look

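Responses of 12 member and background pairs were singled out because a test of the difference between cell backgrounds passed an adjusted p of 0.05 in edgeR's quasi-likelihood test. Between the NRF1-ΔE7 and NRF1-FL lines the difference in log2 response to siNRF1 was -0.92 for POLA2, -0.73 for CDC7, -0.71 for DNA2, -0.21 for WDHD1 and 0.18 for GINS3. Between the NRF1-FL line and cells without a transgene it was 1.07 for POLA2, 0.85 for DNA2, 0.80 for CDC7, 0.26 for PRIM1 and 0.24 for WDHD1. These lists use the same NRF1-FL libraries. Between the NRF1-ΔE7 line and cells without a transgene it was 0.26 for POLD3 and 0.20 for RFC4. POLA2, CDC7 and DNA2 had adjusted p-values of at most 5.79e-09 in each difference they appear in, and the other members lay between 0.00322 and 0.0400.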

How the results depend on the processing

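Directions and calls of POLA2 and CDC7 with siNRF1 in each background, and of POLA2, CDC7 and DNA2 between isoforms under siNRF1 and between lines, held under every alternative run. Over 119 values of single genes, 2872 of 2975 alternative values kept direction and side of the threshold, 81 lost the call, 21 gained it and 1 turned, PRIM1 in the NRF1-ΔE7 line, to 0.00244 with upper-quartile scaling. Members lower with NRF1-ΔE7 than NRF1-FL under siNRF1 went from 14 to 8 with upper-quartile scaling and to 8 with the libraries compared alone. With upper-quartile scaling the count lower with siNRF1 in the NRF1-ΔE7 line went from 20 to 12 and that higher without a transgene above a fold of 0.5 from 2 to 4. Members higher with NRF1-ΔE7 under siNT went from 1 to 2 with upper-quartile scaling, no filter, at least 10 counts in every library, DESeq2 and the replicate block, and to 3 with the libraries compared alone. The count higher in the NRF1-ΔE7 line than in the NRF1-FL line went from 1 to 2 with RLE, upper-quartile scaling and 10 counts in every library, and to 0 with no filter and the libraries compared alone. In those libraries alone, members responding more with NRF1-ΔE7 than without a transgene went from 2 to 1, and with DESeq2 members lower with NRF1-FL than without a transgene from 0 to 1. Leaving out each library gave 1 to 3 members higher above a fold of 0.5 without a transgene (1 without siNT replicate 1), 9 to 15 lower between isoforms under siNRF1 (9 without siNRF1 with NRF1-ΔE7 replicate 2 or with NRF1-FL replicate 3), 0 to 1 higher there above a fold of 0.5 (1 without replicate 1 of either siNRF1 line), 1 to 2 higher under siNT, 0 to 2 higher between lines, 0 to 1 lower with NRF1-FL than without a transgene (1 without siNT with NRF1-FL replicate 3), and 1 to 3 higher with NRF1-ΔE7 than without a transgene. Subunits higher relative to POLA2 were 11 of 11 in the omissions run, for siNRF1 alone and between isoforms under siNRF1. Replicate numbers did not pair the samples. Deviations of same-numbered samples correlated at -0.116 to 0.0641 over 45 pairs (median 0.00304, 0 over 0.1). Upper-quartile scaling moved the median of all genes by at most 0.0967 on the log2 scale. At 31.2 to 44.8 M counts a library POLD4, at 2.06 to 6.56 CPM, is the member with the widest error.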
